A study of Homo sapiens with 11 samples.

Results

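The genes described are 32 enzymes, regulators and carriers of cholesterol and fatty acid synthesis, most of them reported targets of the sterol regulatory element-binding proteins (SREBPs). They were taken from the deposited table by symbol, and each of the 32 had 1 row among 45965 genes. They fall into 4 steps of the pathway: 8 genes of the mevalonate and isoprenoid step, 11 from squalene to cholesterol, 5 regulators and transport genes, and 8 of fatty acid synthesis. All 32 passed the filter on low counts and were among the 16324 genes tested.

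The samples are 11 RNA-seq libraries of H1299, an established human non-small cell lung carcinoma line that lacks its own p53. The cells were transfected with a construct of mutant p53 and selected in neomycin, so every group carries a mutant p53, and no untransfected or vector control was analysed here. The mutants combine a hotspot substitution in the DNA-binding domain, R175H or R273H, with proline (P72) or arginine (R72) at the polymorphic codon 72. R175H P72 had 3 libraries, R175H R72 had 3, R273H P72 had 4 and R273H R72 had 1. Batch b1, as the labels call it, held 4 libraries (1 of R175H R72 and 3 of R273H P72), and batch b2 held the other 7. The series' title is about mutant p53, tumour metabolism and PGC-1α, and the labels do not say whether replicates came from separate clones or cultures, so p-values measure the spread between these libraries. The sources used here do not name the promoter of the constructs.

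Cholesterol is built from acetyl-CoA through mevalonate, the isoprenoid pyrophosphates and squalene, and the same acetyl-CoA pool feeds fatty acid synthesis. SREBPs are membrane-bound transcription factors of the endoplasmic reticulum. When sterols are low, SCAP escorts them to the Golgi, where proteases release the active part, while INSIG proteins hold SCAP back when sterols are plentiful. The protein of SREBF2 acts mainly on cholesterol genes and that of SREBF1 mainly on fatty acid genes, and mutant p53 has been reported to act with SREBPs on mevalonate pathway genes in tumour cells.

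The 250 bases before the RefSeq start of SREBF2 are given here, from the RefSeq promoter table (GRCh38.p14), 5′ to 3′ on the plus strand, at chr22:41832855-41833104. SREBF2 is shown as the member whose window matches TCACNCCAC, a form of the sterol regulatory element core. Capitals mark that match and the match to CCAAT, which reads as ATTGG on the other strand, the box bound by NF-Y. The GENCODE gene starts at 41833079, before the RefSeq start, so the last bases of the stretch lie inside it.
SREBF2: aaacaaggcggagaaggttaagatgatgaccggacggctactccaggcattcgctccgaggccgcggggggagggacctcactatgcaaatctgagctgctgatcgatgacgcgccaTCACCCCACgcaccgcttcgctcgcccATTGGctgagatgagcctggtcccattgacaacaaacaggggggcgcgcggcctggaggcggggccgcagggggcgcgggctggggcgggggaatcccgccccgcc

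The SREBF2 stretch held its TCACNCCAC match with the first base at -133 from the start and a CCAAT match at -106. The table's windows run from 250 bases before to 50 after a start, and 28 of the 32 members matched it, with 39 windows. Both strands were searched. TCACNCCAC stood in 1 of the 39 member windows, against 1.13% of all 35116 windows and 1.13% of those of protein-coding genes. CCAAT stood in 26 of 39, against 34.6% of all windows and 34.7% of protein-coding ones. GGGCGG, the Sp1-type GC box, stood in 33, against 45% and 56.3%. CACGTG, an E-box, stood in 6, against 7.26% and 8.34%. None of the 4 motifs contains another, and a match is a description of these letters, not a binding site.

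Library totals ran from 8346926 to 12829560 counts. The hotspot and the codon 72 form were taken from the labels and not checked on the counts. CPM (counts scaled to the size of the library) was summed over 4 genes listed for the labelled line (KRT8, KRT18, KRT10 and VIM). The sum was 2070 to 2240 in R273H P72, 2630 to 3090 in R175H P72, 2410 to 2560 in R175H R72 and 2450 in R273H R72. VIM was at 755 to 1088 CPM in R273H P72 and 1423 to 1827 in R175H P72, and KRT8 and KRT10 were also lower in R273H P72. KRT18 went the other way, at 806 to 1043 CPM in R273H P72 and 804 to 866 in R175H P72. The part of these genes in the results below was not tested. Among markers of other cell types, the hepatocyte genes ALB, APOB and TTR, the fibroblast genes COL1A2 and LUM, the T cell gene CD3E and the endothelial gene CDH5 were at 0 in all libraries. The trend of counts with the GC content of transcript ends followed the batch in part: its slope, in log2 per 10% GC, was 0.0403 to 0.0671 in the 4 b1 libraries, 0.00383 to 0.024 in R175H P72 and -0.0802 to -0.0487 in the 4 other b2 libraries. All values below are CPM on library totals scaled by TMM, and fold changes come from 1 edgeR quasi-likelihood model of group and batch over the 11 libraries. A gene is called where its Benjamini-Hochberg adjusted p over the 16324 genes is under 0.05. The libraries read transcript ends, so CPM is not divided by gene length and levels are compared within a gene, not between genes.

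**Figure D1:**
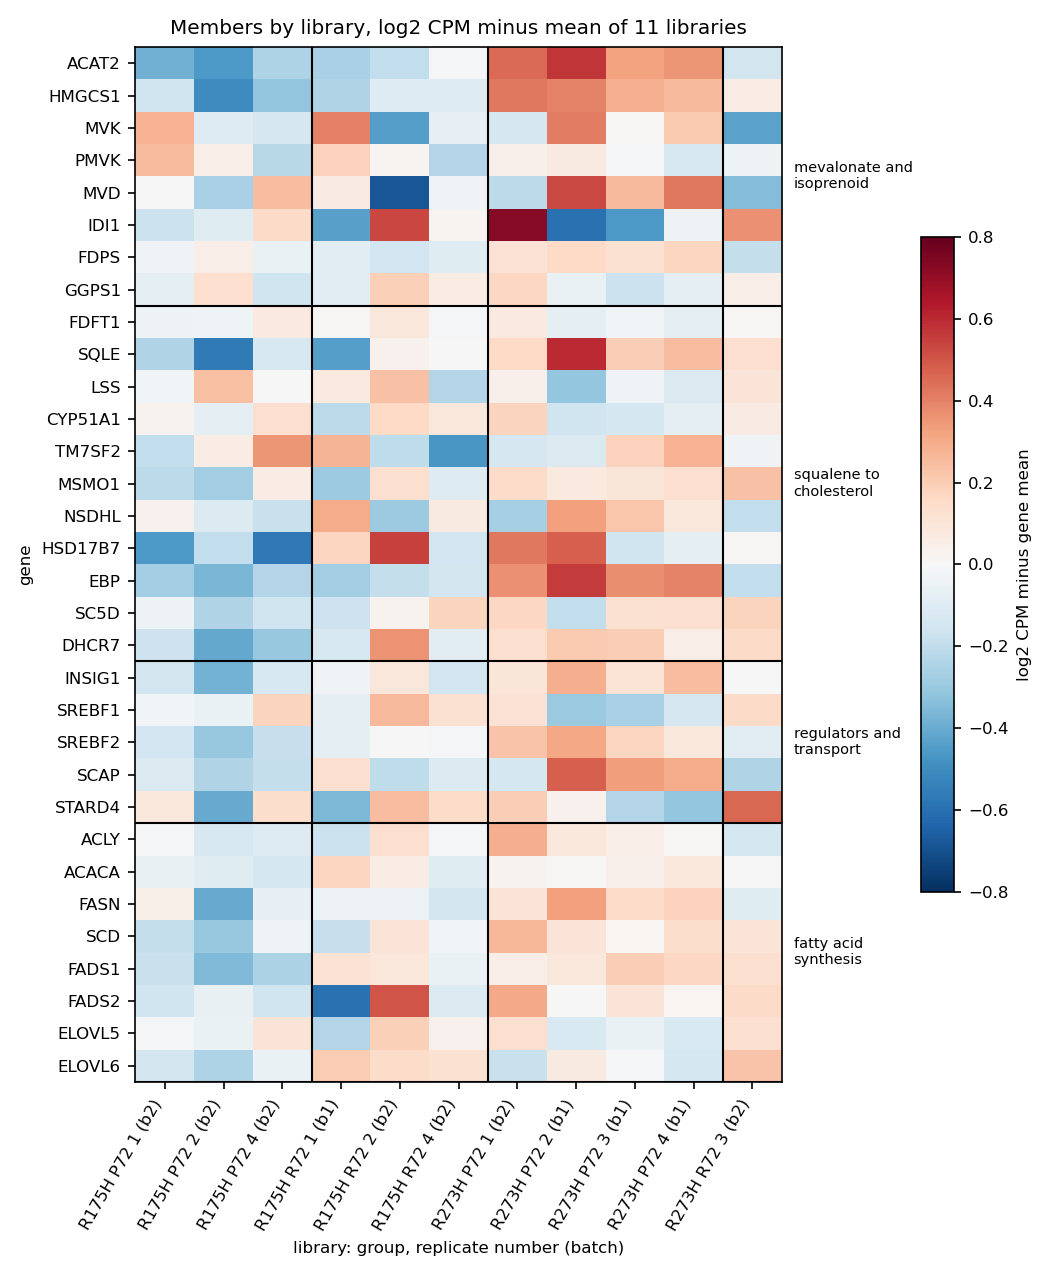
Log2 CPM of each of the 32 members (rows, by pathway step) in each of the 11 libraries (columns, by group, with the batch in brackets), minus the gene's mean over libraries. Red is above and blue below the gene's mean; ACAT2, EBP and HMGCS1 are red in all 4 R273H P72 libraries.

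R273H was first compared with R175H on P72 (4 against 3 libraries), which asks whether the hotspots differ on the same codon 72 form. Of the 32 members, 14 were higher in R273H P72 and 0 were lower, where edgeR called 6.95% of all genes higher and 7.60% lower. At unadjusted p under 0.05 there were 16 members by edgeR, all higher in R273H P72, beside 27.8% of all genes in either direction. DESeq2 and limma-voom each called 14 members higher and 0 lower. Over all genes, DESeq2 called 1044 higher and 1101 lower, and limma-voom called 1223 higher and 1239 lower. The fitted log2 fold change was positive for 26 of 32 members, with a median of 0.28, against a median of 0.003 over all genes tested. The members called were 3 of 8 of the mevalonate step, 5 of 11 from squalene to cholesterol, 2 of 5 regulators and transport genes and 4 of 8 of fatty acid synthesis. In bulk RNA, a change in the make-up of the cells and a change in RNA per cell cannot be told apart.

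In the mevalonate step the called genes were ACAT2, HMGCS1 and IDI1. ACAT2, the cytosolic thiolase that joins acetyl-CoA units (chr6:159760328-159779055, hg38), was at 104.5, 99.3 and 115.2 CPM in R175H P72. It was at 186.5, 203.1, 170.7 and 173.9 CPM in R273H P72. Every R273H P72 library was above every R175H P72 library, and the fitted log2 fold change was 0.855 (SE 0.107, adjusted p = 5.27e-05 by edgeR), or 1.81-fold. Exons of ACAT2 overlap those of TCP1 on the opposite strand, and TCP1 stood at 346.6 ± 16.5 (SD, n = 3) CPM in R175H P72 and 324.0 ± 13.1 (SD, n = 4) in R273H P72. Use of strand in the authors' counting is not stated, so reads of these overlapping genes cannot be told apart.

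HMGCS1, the cytosolic synthase that makes HMG-CoA for mevalonate, was at 77.3, 61.0 and 69.6 CPM in R175H P72. In R273H P72 it was at 115.7, 114.0, 105.3 and 103.7 CPM, with no overlap between the groups. Its log2 fold change was 0.75 (SE 0.106, adjusted p = 0.000103 by edgeR). IDI1, the isomerase of isopentenyl pyrophosphate, was called at 0.67 (SE 0.195, adjusted p = 0.0222 by edgeR), but its groups overlapped. IDI1 was at 10.7, 11.3 and 13.4 CPM in R175H P72 and at 20.0, 7.98, 8.77 and 11.7 in R273H P72, where the first value is the single b2 library. Its log2 fold change was 0.066 (adjusted p = 0.918) without the batch term and 0.44 (adjusted p = 0.478) without R273H P72 replicate 1. It also lost the call without R175H P72 replicate 1 (0.61) or replicate 2 (0.64).

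The other 5 genes of the step were not called. MVK and PMVK, which phosphorylate mevalonate, and MVD, the decarboxylase that follows them, had log2 fold changes of -0.26, -0.11 and -0.14. FDPS, which makes farnesyl pyrophosphate, was at 88.5, 93.8 and 87.0 CPM in R175H P72 and at 97.9, 101.1, 98.2 and 102.0 in R273H P72. Its libraries did not overlap, yet the log2 fold change in the model with batch was 0.13 (SE 0.093, adjusted p = 0.406 by edgeR). The annotation names 8 FDPS pseudogenes, and how the authors' counting shared reads with them is uncertain. GGPS1, which makes geranylgeranyl pyrophosphate, had a log2 fold change of 0.18.

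From squalene to cholesterol, the called genes were SQLE, MSMO1, HSD17B7, EBP and DHCR7. EBP, the sterol isomerase that moves a ring double bond (chrX:48521158-48528716), had the smallest p of the 5. It was at 76.9, 72.2 and 78.9 CPM in R175H P72 and at 119.7, 137.0, 120.2 and 122.5 in R273H P72. The groups did not overlap, and its log2 fold change was 0.72 (SE 0.101, adjusted p = 9.83e-05 by edgeR), or 1.65-fold.

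DHCR7, the reductase of the last step of one branch, was at 96.1, 81.2 and 87.4 CPM in R175H P72 and at 117.7, 124.5, 123.2 and 111.7 in R273H P72. Its log2 fold change was 0.52 (SE 0.129, adjusted p = 0.00883 by edgeR), and the groups did not overlap. SQLE, the squalene epoxidase, was at 61.6, 49.2 and 66.4 CPM in R175H P72 and at 81.2, 109.8, 83.5 and 86.4 in R273H P72, with a log2 fold change of 0.68 (SE 0.189, adjusted p = 0.0307 by edgeR). With 1 library left out, the SQLE value ran from 0.46 without R175H R72 replicate 1, where it was not called, to 1.12 without R273H P72 replicate 1. SQLE was called in 6 of the 11 such fits. MSMO1, the sterol C-methyl oxidase, was at 55.0, 52.6 and 66.5 CPM in R175H P72 and at 70.5, 67.2, 68.3 and 70.1 in R273H P72, with a log2 fold change of 0.37 (adjusted p = 0.0415 by edgeR).

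HSD17B7, a ketosteroid reductase of the same demethylation steps, had few counts. It was at 7.96, 9.54 and 7.36 CPM in R175H P72 and at 14.7, 15.3, 9.81 and 10.4 in R273H P72, with a log2 fold change of 0.75 (SE 0.227, adjusted p = 0.0301 by edgeR). The R273H P72 libraries were all above the R175H P72 libraries, by a narrow margin for replicate 3. The annotation names 2 HSD17B7 pseudogenes, so the share of reads is uncertain.

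The other 6 genes of this step were not called. FDFT1, the squalene synthase at its entry, was at 156.7 ± 7.45 (SD, n = 3) CPM in R175H P72 and 153.8 ± 8.05 (SD, n = 4) in R273H P72, with a log2 fold change of 0.04 and an interval at the 95% level of -0.14 to 0.22. LSS, which closes the sterol rings, CYP51A1, the lanosterol demethylase, and NSDHL, a dehydrogenase of the demethylation complex, had values of -0.12, 0.16 and -0.15. TM7SF2, a sterol reductase, was at -0.34 (adjusted p = 0.183 by edgeR). Exons of TM7SF2 overlap those of VPS51 on the same strand, and VPS51 was called lower at -1.07 (adjusted p = 0.000577 by edgeR). SC5D, a sterol desaturase, was at 0.35 (adjusted p = 0.109 by edgeR).

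Among the regulators, SREBF2 and INSIG1 were called. SREBF2, whose protein drives cholesterol genes and whose stretch before the start is printed above (gene at chr22:41833079-41907308), was at 160.4, 144.2 and 157.0 CPM in R175H P72. It was at 208.7, 220.3, 200.9 and 189.6 CPM in R273H P72, with no overlap. The log2 fold change of SREBF2 was 0.45 (SE 0.096, adjusted p = 0.00299 by edgeR), or 1.37-fold.

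SREBF1 was not called. It was at 291.5, 285.5 and 334.4 CPM in R175H P72 and at 320.8, 241.1, 247.0 and 269.5 in R273H P72, with a log2 fold change of 0.05 and an interval of -0.15 to 0.25. The difference between the SREBF2 and SREBF1 changes was not tested. INSIG1, the sterol sensor partner that retains SCAP and is itself a SREBP target, was at 115.4, 98.0 and 117.0 CPM in R175H P72 and at 136.5, 156.0, 137.4 and 151.4 in R273H P72, with a log2 fold change of 0.35 (adjusted p = 0.0323 by edgeR). SCAP was at 272.8, 250.3 and 258.8 CPM in R175H P72. It was at 411.2, 372.5 and 363.1 CPM in the 3 b1 libraries of R273H P72 and 268.1 in the b2 library, and with the batch term its log2 fold change was 0.12 (adjusted p = 0.469 by edgeR). Without the batch term SCAP was called at 0.44 (adjusted p = 0.025 by edgeR). STARD4, a cytosolic sterol carrier, was at 0.30 (adjusted p = 0.304 by edgeR).

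In fatty acid synthesis, the 4 called genes were ACLY, SCD, FADS1 and FADS2. ACLY, which makes cytosolic acetyl-CoA from citrate, was at 114.8, 106.2 and 108.2 CPM in R175H P72 and at 141.8, 123.2, 120.5 and 116.8 in R273H P72, with a log2 fold change of 0.37 (SE 0.093, adjusted p = 0.00936 by edgeR). Without the batch term ACLY was at 0.20 (adjusted p = 0.182). SCD, the desaturase that makes oleate (chr10:100347124-100364834), was at 2135, 1978 and 2381 CPM in R175H P72 and at 2937, 2625, 2471 and 2691 in R273H P72. SCD had no overlap between the groups and a log2 fold change of 0.46 (SE 0.101, adjusted p = 0.00402 by edgeR).

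FADS1 and FADS2, desaturases of polyunsaturated fatty acids, lie side by side on chromosome 11 with overlapping exons on opposite strands. FADS1 was at 267.6, 237.2 and 253.7 CPM in R175H P72 and at 313.7, 322.2, 346.9 and 339.3 in R273H P72, with a log2 fold change of 0.31 (adjusted p = 0.0282 by edgeR). FADS2 was at 16.5, 17.7 and 16.6 CPM in R175H P72 and 22.8, 18.5, 19.8 and 18.7 in R273H P72, with a log2 fold change of 0.60 (adjusted p = 0.0275 by edgeR). FADS2 exons overlap those of FEN1 on the same strand, and FEN1 was itself called higher at 0.96 (SE 0.112), so the FADS2 value is uncertain. FADS2 was 0.24 (adjusted p = 0.421) without the batch term. With 1 library left out it ran from 0.43 without R175H R72 replicate 1, where it was not called, to 1.006 without R273H P72 replicate 1.

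Of the other 4 fatty acid genes, FASN, the synthase that builds palmitate, was at 468.2, 343.0 and 434.2 CPM in R175H P72 and at 487.5, 568.5, 501.4 and 515.2 in R273H P72. Its libraries did not overlap and its log2 fold change was 0.25 (SE 0.116, adjusted p = 0.155 by edgeR). FASN was called at 0.47 (adjusted p = 0.0166 by edgeR) with the GC trend removed and at 0.32 (adjusted p = 0.0459) without the batch term. ACACA, which makes malonyl-CoA, was at 0.07, and the elongases ELOVL5 and ELOVL6 were at 0.16 and 0.002. The interval of ELOVL6 was -0.20 to 0.20.

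Counting libraries rather than fitted values, 16 members had every R273H P72 library above every R175H P72 library and 0 had every library below, where 14.0% and 14.1% of all genes did so. The 16 were 13 of the 14 called genes, IDI1 being the exception, with FDPS, ACACA and FASN. This count is not adjusted for batch: all 3 R175H P72 libraries were b2, and 3 of the 4 R273H P72 libraries were b1. Separation by batch and by hotspot cannot be told apart in it. With the batch term the fitted changes of FDPS and ACACA were 0.13 and 0.07. In batch b2 alone, 1 R273H P72 library met 3 of R175H P72, the spread came from the groups with several libraries, and the libraries were also part of the fit above. There 5 of the 14 were called (ACAT2, HMGCS1, IDI1, EBP and SREBF2), against 2.60% of all genes called higher in that fit. The b2 values of the other 9 ran from 0.28 for MSMO1 to 0.82 for HSD17B7. With the GC trend removed, 13 members were called, of which 12 were among the 14, and MSMO1 (0.28) and INSIG1 (0.28) were not. With the batch term left out, 11 were called, of which 9 were among the 14, and IDI1, MSMO1 (0.25), HSD17B7 (0.60), ACLY and FADS2 were not. The count of called members was 6 without R273H P72 replicate 1, 7 without R175H R72 replicate 1, 8 without R175H P72 replicate 2, and 9 without R175H P72 replicate 1 or without R175H R72 replicate 2. Calls over all genes moved as well. With the batch term and all libraries, 1135 genes were called higher, against 976 with the GC trend removed and 1325 without the batch term. They were 544 without R273H P72 replicate 1, 602 without R175H R72 replicate 1 and 754 without R175H P72 replicate 2. They were 1047 without R175H P72 replicate 1 and 972 without R175H R72 replicate 2. ACAT2, HMGCS1 and EBP were called in each of the 11 fits that left out 1 library. DHCR7, SREBF2, ACLY and SCD were called in 10 of them, IDI1 in 8, and FADS1 and FADS2 in 7. SQLE, HSD17B7 and INSIG1 were called in 6 and MSMO1 in 4.

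**Figure D2:**
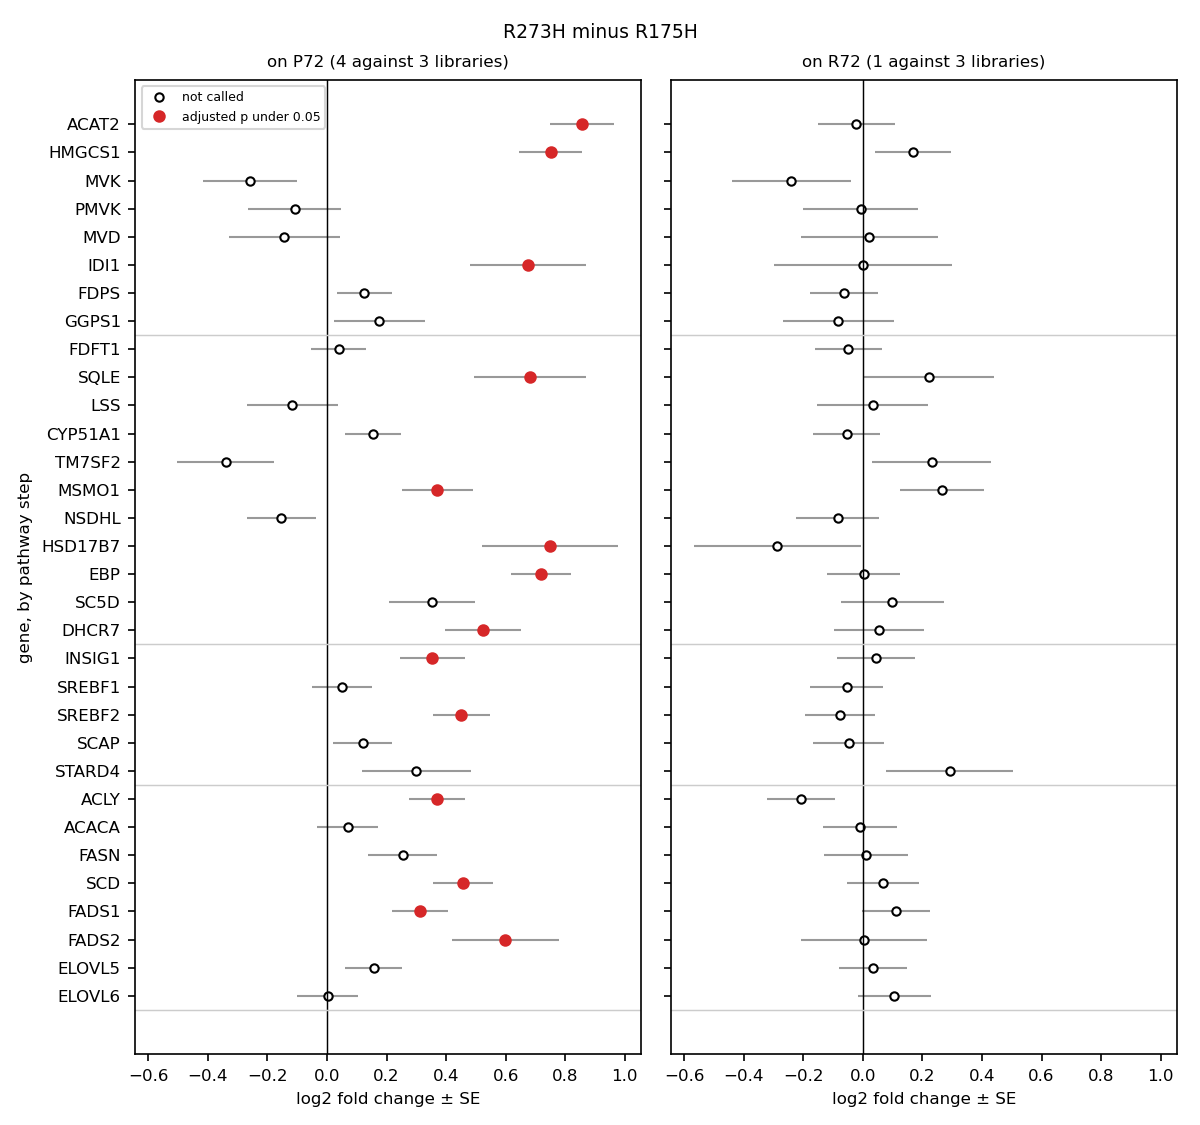
Log2 fold change of R273H against R175H (horizontal axis) for each member (vertical axis, by pathway step) on P72 (left, 4 against 3 libraries) and on R72 (right, 1 against 3 libraries), with bars of 1 SE. Filled red points have an edgeR adjusted p under 0.05: there are 14 on P72, all to the right of 0, and 0 on R72.

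Beyond the 32 members, 44 genes of 5 further lists around the pathway were tested in the same comparison, of which 7 were called higher and 3 lower, beside 6.95% and 7.60% of all genes tested. In SREBP processing and turnover, 2 of 10 were higher, among them ERLIN1, a lipid raft protein of the endoplasmic reticulum, at 0.76 (SE 0.123). ERLIN1 was at 77.6, 78.4 and 106.5 CPM in R175H P72 and at 144.2, 106.5, 98.5 and 110.6 in R273H P72, so the groups overlapped, and it was at 0.40 (adjusted p = 0.149) without the batch term. Among other reported SREBP targets, 3 of 14 were higher: NPC2, the lysosomal cholesterol carrier, at 0.37 (SE 0.096), ACSL3, a long-chain acyl-CoA synthetase, at 0.45 (SE 0.101), and RDH11, a retinol dehydrogenase, at 0.71 (SE 0.122). The RDH11 libraries overlapped. Without the batch term RDH11 was at 0.29 (adjusted p = 0.352) and ACSL3 at 0.25 (adjusted p = 0.122), and NPC2 and ACSL3 lost the call without R273H P72 replicate 1 (0.43 and 0.495), as NPC2 did without R175H R72 replicate 1 (0.33).

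In that list 2 genes were lower. They were PCYT2, of phosphatidylethanolamine synthesis, at -0.80 (SE 0.183), and SLC25A1, the mitochondrial citrate carrier, at -0.59 (SE 0.138), both with overlapping libraries. Without the batch term they were at -0.35 (adjusted p = 0.261) and -0.27 (adjusted p = 0.206). Of the protein prenylation genes, RABGGTB, a subunit of Rab geranylgeranyl transferase, was called higher at 0.63 and its partner subunit RABGGTA was called lower at -0.60. Without the batch term RABGGTB was at -0.24 (adjusted p = 0.79) and RABGGTA at -0.33 (adjusted p = 0.139). Among fatty acid elongation partners, 1 of 6 was called, HACD3, an acyl-CoA dehydratase, at 0.30 (SE 0.097). HACD3 was called in 2 of the 11 fits that left out 1 library, and without the batch term it was at 0.21 (adjusted p = 0.12). Of 7 LXR receptors and targets, which respond to sterol excess, edgeR, DESeq2 and limma-voom each called 0, and 1 had an unadjusted p under 0.05, with a negative value.

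On R72, R273H was compared with R175H through 1 library against 3, and the fit assumes that the single R273H R72 library varies like the other groups. None of the 32 members was called: 0 by edgeR, DESeq2 or limma-voom and 0 at unadjusted p under 0.05 by edgeR, where edgeR called 0.0429% of all genes. The median log2 fold change was 0.003, 17 of 32 members were positive, and the range was -0.29 to 0.29. ACAT2 was at 123.4 CPM in R273H R72 and at 113.8, 119.2 and 135.5 in R175H R72, inside that range, with a log2 fold change of -0.02 and an interval of -0.28 to 0.23. EBP was at 81.0 CPM in R273H R72 and at 76.8, 81.5 and 84.1 in R175H R72, with a log2 fold change of 0.002 and an interval of -0.24 to 0.24.

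The member with the smallest p on R72 was MSMO1, at 75.1 CPM in R273H R72 and 52.1, 69.8 and 59.3 in R175H R72, a log2 fold change of 0.26 (unadjusted p = 0.0758 by edgeR). ACLY followed at -0.21, with 105.3 CPM against 103.2, 127.5 and 115.5. The next 6 were STARD4 at 0.29, HMGCS1 at 0.17, MVK at -0.24, TM7SF2 at 0.23, HSD17B7 at -0.29 and SQLE at 0.22. Each of these 8 had an adjusted p that rounds to 1. SREBF2 was at 167.7 CPM in R273H R72, under all 3 R175H R72 libraries (169.6, 178.0 and 177.3), at -0.08 with an interval of -0.31 to 0.15.

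R72 was then compared with P72 on R175H (3 against 3 libraries), the question being the effect of the codon 72 form on that hotspot. Here 0 members were called by edgeR and by limma-voom, where edgeR called 1.13% of all genes, and DESeq2 called 2 higher. At unadjusted p under 0.05 there were 11 members, 9 positive and 2 negative, beside 13.6% of all genes. The median log2 fold change was 0.16 and 24 of 32 were positive. Without R175H R72 replicate 2 there were 4 such members and the median was 0.07, without R175H P72 replicate 2 there were 6 and it was 0.09, and without the batch term there were 4 and it was 0.11. The shares of all genes at that threshold, in the same order of fits, were 8.5%, 10.3% and 7.62%. In 5 members every R175H R72 library was above every R175H P72 library and in 1 every library was below, against 6.81% and 6.15% of all genes.

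DHCR7 had the smallest p, at 98.4, 137.9 and 101.2 CPM in R175H R72 against 96.1, 81.2 and 87.4 in R175H P72. Its log2 fold change was 0.39 (SE 0.111, adjusted p = 0.0999 by edgeR). FADS1 was at 328.7, 322.1 and 291.8 CPM in R175H R72 against 267.6, 237.2 and 253.7, a log2 fold change of 0.28 (SE 0.083, adjusted p = 0.106 by edgeR). DHCR7 and FADS1 were the pair that DESeq2 called (adjusted p = 0.0472 and 0.0243), where it called 1.47% of genes with an adjusted p higher.

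HSD17B7 was at 12.3, 16.0 and 9.84 CPM in R175H R72 against 7.96, 9.54 and 7.36 in R175H P72, a log2 fold change of 0.69 (SE 0.206, adjusted p = 0.111 by edgeR). ELOVL6, which extends palmitate, was at 92.6, 89.0 and 87.7 CPM in R175H R72 against 72.8, 67.9 and 77.5, at 0.27 (SE 0.089, adjusted p = 0.158 by edgeR). In both genes the R72 libraries were all above the P72 libraries. The other members of the 8 with the smallest p were ACAT2 at 0.24, SREBF2 at 0.20, SCD at 0.21 and TM7SF2 at -0.35. VPS51, which overlaps TM7SF2, was called lower on R72 at -0.83 (adjusted p = 0.00973 by edgeR). Without R175H R72 replicate 4, 3 members were called, where 221 of all genes were called, against 185 with all libraries and the batch term.

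**Figure D3:**
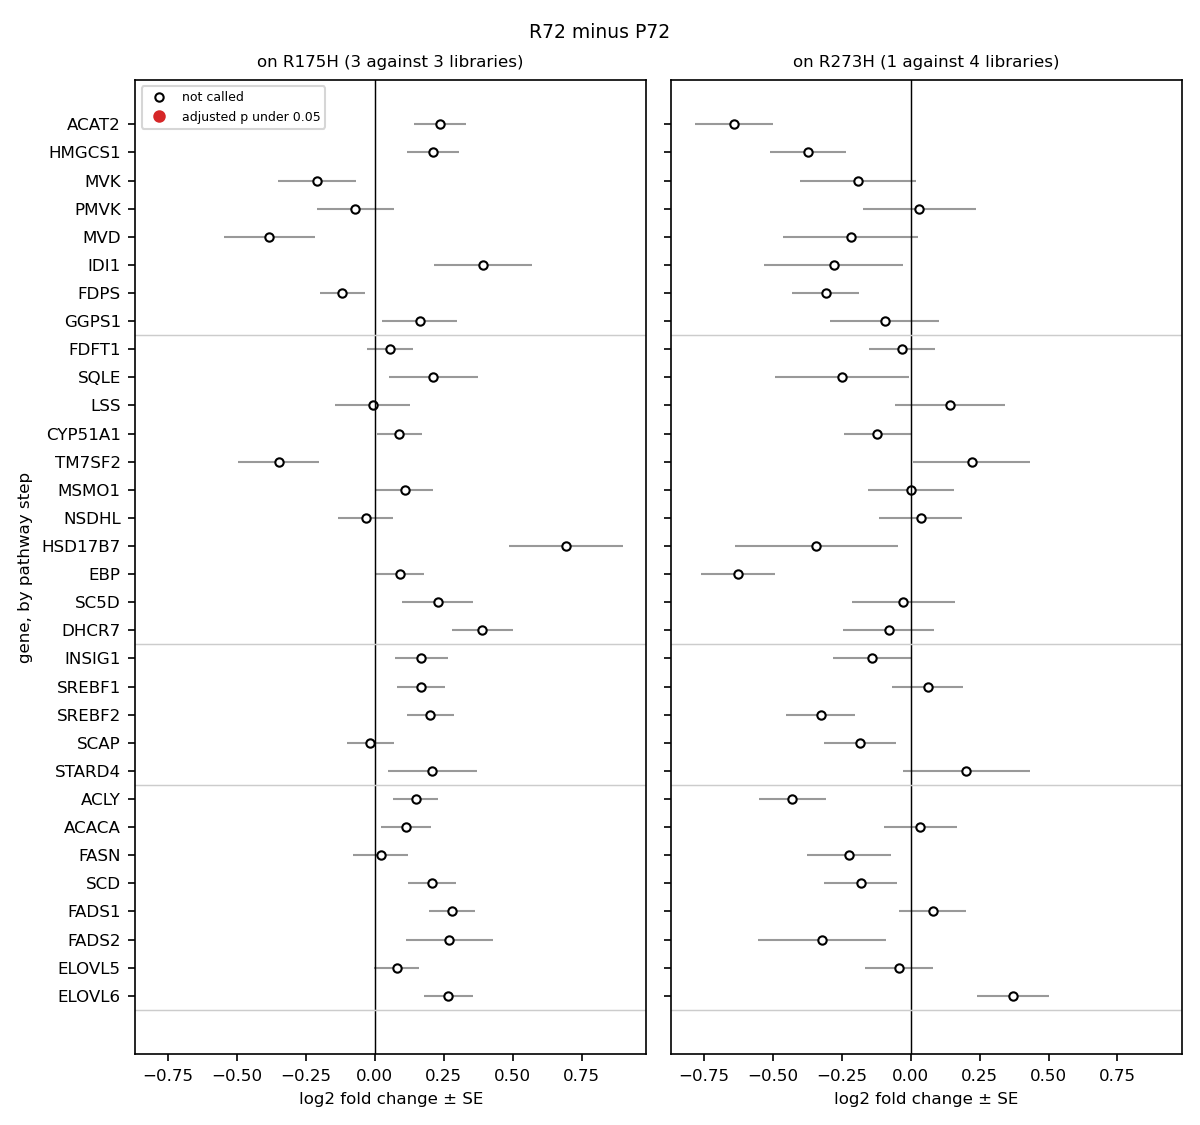
Log2 fold change of R72 against P72 (horizontal axis) for each member (vertical axis, by pathway step) on R175H (left, 3 against 3 libraries) and on R273H (right, 1 against 4 libraries), with bars of 1 SE. No point reaches an edgeR adjusted p under 0.05; 24 of 32 points are above 0 on R175H and 10 of 32 on R273H.

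On R273H, R72 was compared with P72 through 1 library against 4. By edgeR and limma-voom 0 members were called, where edgeR called 0% of all genes, and DESeq2 called 3 lower. At unadjusted p under 0.05 there were 7 members by edgeR, 1 positive and 6 negative, beside 7.75% of all genes. The median log2 fold change was -0.13, and 10 of 32 were positive. The median was -0.04, with 14 positive, without the batch term and -0.07 with a replicate block.

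EBP in the R273H R72 library stood at 81.0 CPM, under all 4 R273H P72 libraries (119.7, 137.0, 120.2 and 122.5). Its log2 fold change was -0.63 (SE 0.134, adjusted p = 0.149 by edgeR). ACAT2 stood at 123.4 CPM, under 186.5, 203.1, 170.7 and 173.9, at -0.64 (SE 0.143, adjusted p = 0.149 by edgeR). ACLY stood at 105.3 CPM, under 141.8, 123.2, 120.5 and 116.8, at -0.43 (SE 0.123, adjusted p = 0.277 by edgeR).

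EBP, ACAT2 and ACLY were the 3 genes that DESeq2 called lower on R72, where it called 2.07% of genes with an adjusted p lower. DESeq2 gave an adjusted p for 22 of the 32 members in that comparison. ELOVL6 was at 94.2 CPM in R273H R72, above 71.3, 84.8, 80.2 and 73.1 in R273H P72, at 0.37 (SE 0.131, adjusted p = 0.423 by edgeR). The others of the 8 with the smallest p were HMGCS1 at -0.37, SREBF2 at -0.33, FDPS at -0.31 and FASN at -0.22, and in all 4 the R72 library was under every P72 library. Over the 32 members, the R72 library was under every P72 library in 13 and above every P72 library in 6. The share of all genes placed so was not counted for this comparison, so the separation is not read as particular to the members. With 1 library, the spread of R273H R72 was not measured.

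**Figure D4:**
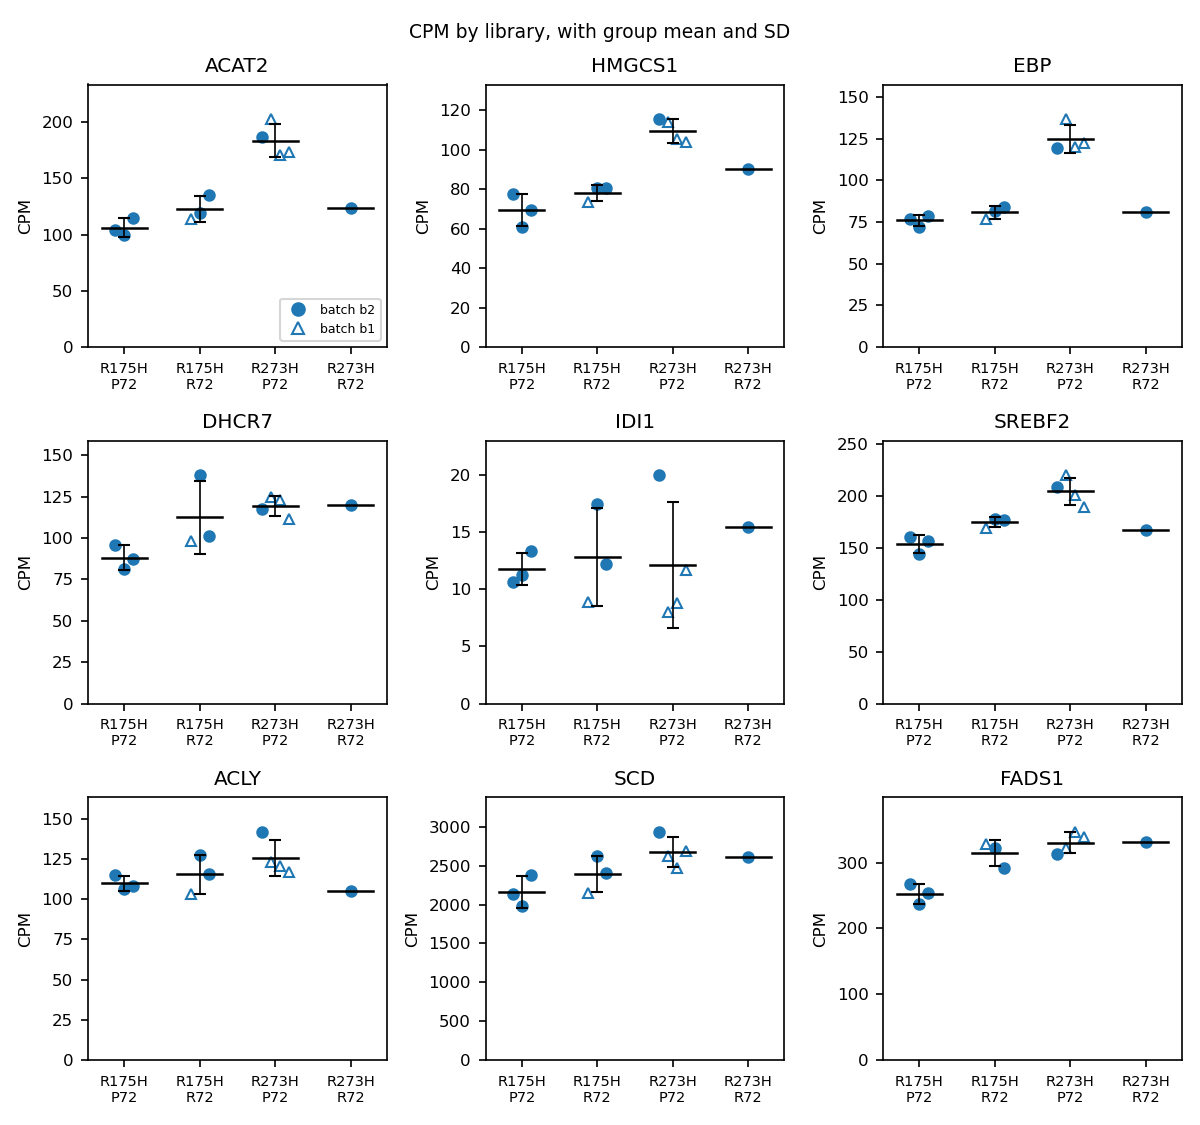
CPM (vertical axis, from 0) of 9 members in each library of the 4 groups (horizontal axis), with the group mean as a line and the SD as a bar; circles are batch b2 and triangles batch b1. ACAT2, HMGCS1, EBP and SREBF2 are higher in the 4 R273H P72 libraries than in the other 7, and the IDI1 points of R273H P72 split by batch.

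The difference between the R72 effects on the hotspots was tested as an interaction. It shares the R175H P72 and R273H P72 libraries with the comparisons above, so its values are not independent of theirs. By edgeR and limma-voom 0 members were called, where edgeR called 0.0306% of all genes, and 8 had an unadjusted p under 0.05 by edgeR, all negative, beside 10.2% of all genes. DESeq2 called 4 lower, ACAT2, EBP, SREBF2 and ACLY, where it called 1.95% of genes with an adjusted p lower. The median over the members was -0.21, and 7 of 32 were positive.

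ACAT2 had the smallest p for the difference. Its R72 effect was 0.24 on R175H and -0.64 on R273H, a difference of -0.88 (SE 0.182, interval -1.23 to -0.52, adjusted p = 0.0733 by edgeR). EBP was at 0.09 and -0.63, a difference of -0.72 (SE 0.17, adjusted p = 0.138 by edgeR). ACLY was at 0.15 and -0.43, a difference of -0.58 (SE 0.157, adjusted p = 0.186 by edgeR).

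The other 5 of the 8 with the smallest p were HMGCS1 at -0.58, SREBF2 at -0.53, HSD17B7 at -1.04, SCD at -0.39 and DHCR7 at -0.47, with edgeR adjusted p of 0.229 to 0.459. Without R175H P72 replicate 4, or without R273H P72 replicate 2, 1 member was called. In these fits 34 and 18 of all genes were called for the difference, against 5 with all libraries. On the further lists, of 44 genes, 0 were called by edgeR or limma-voom in the 4 comparisons other than the hotspot on P72. DESeq2 called 1 higher and 1 lower for R72 on R175H, 1 lower for the difference and 0 elsewhere. At unadjusted p under 0.05, edgeR gave 14 genes on R175H and 5 on R273H for the R72 effect, 5 for the difference and 0 for the hotspot on R72, where the shares of all genes were 13.6%, 7.75%, 10.2% and 4.62%.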

How the data were processed

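Lexogen QuantSeq 3′ mRNA libraries of H1299 cells were sequenced as single reads on a NextSeq 500, per the labels' protocols. The authors deposited 1 table of estimated counts (expected counts) per gene, with 1 column per library; the deposited values are whole numbers. The tools, per the submitters' processing notes, were Bowtie2, RSEM 1.2.12 and DESeq2, on genome build hg38; settings, strand use and filters are not given in the sources used here. RSEM shares reads with several matches between genes. Groups and batches came from the titles and characteristics of the samples.

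Of 45965 genes in the table, 20641 had no count. Counts were tested with edgeR 4.0.16 (robust quasi-likelihood) in R 4.3.3, after filterByExpr with the 4 groups at its minimum count of 10 and minimum total of 15, and TMM scaling, with group and batch as terms. Benjamini-Hochberg adjustment ran over 16324 genes, with a threshold of 0.05. The SE is the log2 fold change divided by the square root of F. Intervals are 1.96 SE each way, which only approximates the 95% level and is somewhat narrower than the F test implies. For the hotspot on P72, TM7SF2 had an interval of -0.66 to -0.02 with an unadjusted p of 0.0515 by edgeR. The fits were run on simulated counts with known changes. Those counts held no batch effect and no GC trend, so they do not test how the fits handle either. DESeq2 1.42.0 and limma-voom (limma 3.58.1) were alternatives, as were other scalings and filters, the batch term, a replicate block, a GC correction from the last 500 nucleotides of transcripts, and each library left out. Positions and overlaps came from GENCODE 29, which holds 42551 of the gene IDs. In each of the 12 pairs of replicates the counts differed beyond sampling noise (chi-square over its degrees of freedom 4.01 to 18.3), so no library was treated as a duplicate. Library totals of 8346926 to 12829560 set the precision of low genes, and intervals assume that the model's spread holds.

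Fold changes are given for members called in a comparison and for the 8 with the smallest p there; the others are given by values, counts and ranges. For the further lists, called genes are named, except for a result that is not reported here. The members and lists were chosen with earlier results of these data known.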

Additional observations from a re-analysis of the deposited data

Results flagged for a closer look

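In R273H P72, the group of 4 libraries, 2 members had 1 library far from the other 3. EBP had its highest library at 137 CPM (replicate 2), and the gap to the next library took 0.838 of the group's range. SC5D had its lowest library at 18.7 CPM, also replicate 2, with a gap of 0.864 of the range. Both passed Dixon's critical value for 4 libraries, which chance passes in about 1 in 20 groups. EBP was called in the hotspot comparison on P72 in each fit that left out 1 library, at 0.66 to 0.85.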

How the results depend on the processing

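The count of members called for R273H against R175H on P72 (14) was 5 in batch b2 alone and 6 to 14 with 1 library left out. The replicate numbers do not pair the samples (correlations of same-numbered libraries -0.253 to 0.146), and with a replicate block 10 were called. With that block 842 of all genes were called higher, against 1135 without it. For R72 on R175H (0 called) it was 3 with no filter on low counts, 2 by DESeq2 and 0 to 3 with 1 library left out. For R72 on R273H (0) it was 2 with no filter and 3 by DESeq2, and for the difference (0) it was 2 with no filter, 4 by DESeq2 and 0 to 1 with 1 library left out. Without the filter 25324 genes were tested, and calls over all genes rose beside the members' calls in these comparisons. In the order given, all-gene calls went from 185 to 564, from 0 to 137 and, for the difference, from 5 to 196. The log2 fold change of RABGGTB for the hotspot on P72 reversed to -0.242 without the batch term. For the hotspot on R72, which had no called member, the replicate block turned MVK to 0.126 and HSD17B7 to 0.158. Over 56 fold changes and 1151 values under alternatives, 1036 kept direction and side of the threshold, 93 kept direction and lost the call, 19 gained a call and 3 reversed. A fold change not called in the main fit counted as kept while it stayed uncalled. All 93 losses fell on genes called for the hotspot on P72, so the pooled count overstates how steady those calls were. The cause of the changes was not tested. R273H R72 had 1 library, so its spread was not measured in the 3 comparisons that use it. The GC trend followed batch only in part. Within b2 its slope also differed by group, at 0.00383 to 0.024 in R175H P72 and -0.0802 to -0.0487 in the other b2 libraries. The batch term does not take up that difference. The part of the GC trend in the counts was tested only through the correction, with 13 members called for the hotspot on P72.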
